A study of Mus musculus with 2 samples.

Results

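Collagens and laminins are the structural proteins of basement membranes and of fibrous extracellular matrix, and their transcripts were followed here through the cell classes of mouse brain that carried a glioblastoma graft. The members were all genes whose symbols name a collagen alpha chain or a laminin alpha, beta or gamma chain and that held at least 20 UMIs over both libraries, counted in barcodes with at least 1000 UMIs, at least 500 genes and at most 10% mitochondrial UMIs. Of 55 such symbols among 32285 listed genes, 52 passed, 41 collagens and 11 laminins. Col10a1, Col19a1 and Col24a1 held at most 3 UMIs and were left out, and the members nearest the minimum were Col6a4 with 20 UMIs and Col22a1 with 32 UMIs.

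The study made 10x Genomics 3′ single-cell libraries from dissociated brain around the graft, 1 from a host with conditional loss of Plexin-B2 (conditional knockout, cKO) and 1 from a control host. The cKO host was Cx3cr1 CreER/+ Plxnb2fl/fl and the control host was Cx3cr1 CreER/+ Plxnb2 fl/+, so the control, although titled WT, carried the same Cre allele and a floxed Plxnb2 allele. Both hosts received intracranial KR158 cells, a mouse glioblastoma line, and tamoxifen at 100 mg/kg from 3 days before the graft, every other day until 8 weeks, to activate a Cre recombinase made from the Cx3cr1 locus, which is active in microglia and other myeloid cells. With 1 library per genotype there was no replicate and no test, genotype, animal and library preparation cannot be told apart, and every interval below covers counting error only.

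In the brain, basement membranes ensheath the vessels, with endothelial cells and pericytes sharing a membrane and astrocyte endfeet and fibroblasts adding to an outer one. Their core is a network of type IV collagen trimers joined to a network of laminins, each laminin being a trimer of an alpha, a beta and a gamma chain. Fibrillar collagens such as types I, III and V form the tensile fibres of the meninges and of the sheaths of larger vessels, and type VI, VIII and FACIT collagens (fibril-associated chains with interrupted triple helices) decorate or link these structures.

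The filtered libraries held 5206 cKO and 7645 control cells without doublet calls, with 41808571 and 48734324 UMIs and medians of 5917 and 4626 UMIs per cell. The libraries shared 8 barcodes. Cells were clustered without any of the 52 members among the genes used, and clusters were named only from other marker genes. Plxnb2, the targeted gene, stood at 36.7 CPM in cKO and 199 CPM in control microglia-like cells, and at 8.86 and 10.4 CPM in cKO and control endothelial-like cells (CPM, UMIs per 1000000 UMIs of the class). Whether the counted 3′ end of Plxnb2 lies within the deleted part is not given in the sources used here.

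Type IV collagen genes lie in head-to-head pairs, and the stretch between the annotated starts of a pair was examined. Whether both genes use that stretch as a promoter was not tested. On mm10, with GENCODE vM21 gene models, Col4a1 (chr8:11198423-11312826, minus strand) and Col4a2 (chr8:11312805-11449287, plus strand) overlapped by 22 bases at their starts, which leaves no stretch between them. Col4a4 (chr1:82448423-82586849, minus) and Col4a3 (chr1:82586921-82722059, plus) were 71 bases apart. Col4a6 (chrX:141165403-141474076, minus) and Col4a5 (chrX:141475385-141689234, plus) were 1308 bases apart. The stretches are shown because the members of the pairs differed in how closely their levels followed each other. They are given 5′ to 3′ on the strand of the named gene, from RefSeq promoter windows on GRCm38.p6: the whole stretch between Col4a4 and Col4a3 (chr1:82586850-82586920), the 250 bases before Col4a6 (chrX:141474077-141474326) and the 216 bases before Col4a5 (chrX:141475169-141475384). Capitals mark a GC box (GGGCGG or its reverse complement) or a CCAAT box.
Col4a4: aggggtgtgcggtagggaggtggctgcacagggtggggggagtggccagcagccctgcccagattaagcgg
Col4a6: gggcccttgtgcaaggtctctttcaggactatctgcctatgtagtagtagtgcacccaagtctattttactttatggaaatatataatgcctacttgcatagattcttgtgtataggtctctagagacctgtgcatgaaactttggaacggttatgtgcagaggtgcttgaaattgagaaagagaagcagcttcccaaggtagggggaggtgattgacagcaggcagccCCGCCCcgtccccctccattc
Col4a5: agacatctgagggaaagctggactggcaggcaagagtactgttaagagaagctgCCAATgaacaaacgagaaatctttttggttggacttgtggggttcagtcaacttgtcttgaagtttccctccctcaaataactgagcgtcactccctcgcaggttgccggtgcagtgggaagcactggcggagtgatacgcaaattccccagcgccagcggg
Both strands were searched for the GC box GGGCGG, for the CCAAT box and for the TATA box TATAAA. The Col4a4 stretch held none of them, where 20.7%, 13.3% and 4.41% of 32851 promoter windows of the same length held each. The Col4a6 stretch held 1 GC box, found in 32.7% of windows of its length, and no CCAAT or TATAAA. The Col4a5 stretch held 1 CCAAT box, found in 30.8% of windows of its length, and neither other motif.

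Relative to all UMIs of a class, the whole family was highest in fibroblast-like and mural-like cells among the named classes. By count, endothelial-like cells held more family UMIs, 9382 in cKO and 6287 in control, against 2075 and 1767 in mural-like cells. The 52 members summed to 13505 CPM in 14 cKO and 6432 CPM in 18 control fibroblast-like cells. The sum was 4491 and 3958 CPM in cKO and control pericyte-like cells (100 and 93 cells) and 1807 and 2033 CPM in vascular-smooth-muscle-like cells (71 and 72 cells). Endothelial-like cells came next, at 1378 and 1486 CPM for the arterial-like cluster, 1025 and 1118 CPM for the capillary-like cluster and 976 and 1129 CPM for the venous-like cluster, cKO before control. Ependymal-like cells, which line the ventricles, held 836 CPM in cKO and 881 CPM in control. Astrocyte-like cells held 338 and 340 CPM, microglia-like cells 181 and 235 CPM and oligodendrocyte-like cells 103 and 107 CPM, again cKO before control. Control choroid-plexus-like cells, barely sampled in cKO, held 1045 CPM. In each library the counting intervals of the capillary-like and venous-like clusters overlapped.

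A class was taken as leading for a member if it had the highest mean CPM over the libraries in which it had at least 10 cells, and at least 10 UMIs of the member, and 43 of 52 members had one. Fibroblast-like cells led for 19 members and pericyte-like cells for 8, and a vascular or fibroblast-like class led for 30 in all. Ependymal-like cells led for 4, choroid-plexus-like cells for 3 and oligodendrocyte-like cells for 2. For 35 of the 43 the same class led in both libraries, and Col4a1 and Lamb2 were among the exceptions. The other 9 members had fewer than 10 UMIs in their highest class. Some fibroblast-like leads rested on few UMIs, as for Col7a1 with 6 UMIs in cKO and 4 in control, 50% of them in 1 cell of each library. Leading classes were not counted over all genes, so the lead counts here and below cannot be read as a trait of the family.

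**Figure D1:**
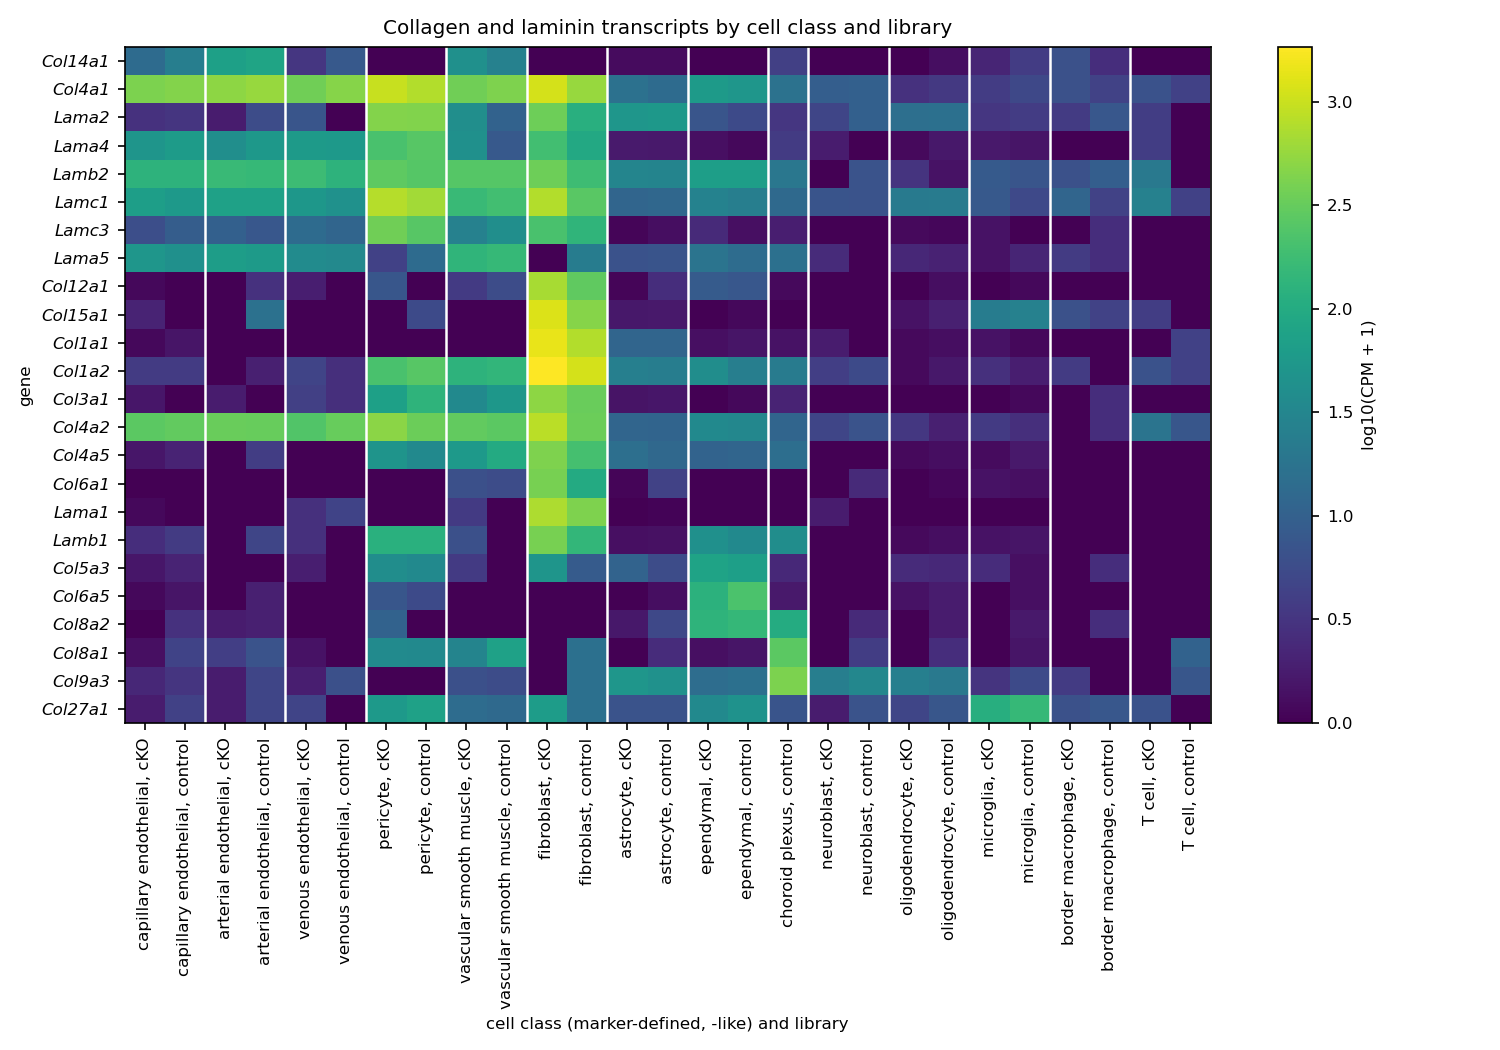
Level of 24 collagen and laminin genes (rows, those with at least 50 CPM and 30 UMIs in their leading class in a library) in marker-defined classes of the cKO library (left column of each pair) and the control library (right column), as log10(CPM + 1). Fibroblast-like and pericyte-like columns are brightest for most rows, while Col6a5 and Col8a2 are highest in ependymal-like cells and Col27a1 in microglia-like cells. Choroid-plexus-like cells are shown for control only.

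The main type IV chains were detected in every vascular class. Col4a1 held 989 CPM in cKO (95% interval 881 to 1106) and 772 CPM in control (663 to 895) pericyte-like cells. In the capillary-like cluster it held 412 CPM in cKO (395 to 430) and 455 CPM in control (433 to 477). In oligodendrocyte-like cells, which make no basement membrane, Col4a1 held 1.93 and 2.44 CPM in cKO and control, taken here as the background level. After every cell was thinned to 1000 UMIs, 52.0% of cKO and 47.3% of control pericyte-like cells had a Col4a1 UMI, against 0.179% and 0.107% of oligodendrocyte-like cells. Without thinning these shares were 86.0% and 76.3% in pericyte-like cells (median depths 3026 and 2437 UMIs) and 1.25% and 1.60% in oligodendrocyte-like cells (median depths 7585 and 6393 UMIs).

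Col4a2, whose chain joins that of Col4a1 in a trimer, was highest in fibroblast-like cells, at 848 CPM in cKO and 341 CPM in control. It held 498 CPM in cKO and 338 CPM in control pericyte-like cells, and 273 and 302 CPM in the capillary-like cluster. The count of Col4a1 over that of Col4a2 was 1.99 (1.63 to 2.43) in cKO and 2.28 (1.74 to 3.02) in control pericyte-like cells. In the capillary-like cluster the same ratio was 1.51 in both libraries (1.41 to 1.61 in cKO, 1.40 to 1.63 in control). The pericyte-like intervals lay above those of the capillary-like cluster in both libraries. Because 3′ counts of different genes differ in capture, only the change of this ratio between classes is read.

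The remaining type IV chains had narrower distributions. Col4a5 was highest in fibroblast-like cells, at 424 CPM in cKO and 197 CPM in control, and was at 55.4 and 97.5 CPM in smooth-muscle-like cells. Col4a6 followed it there, with 299 and 83.3 CPM in cKO and control fibroblast-like cells. Astrocyte-like cells held Col4a5 with hardly any Col4a6, 117 and 5 UMIs in cKO and 143 and 9 UMIs in control. Col4a4 held 71.1 CPM in cKO and 86.8 CPM in control pericyte-like cells, next to 45.2 and 39.1 CPM of Col4a3. In ependymal-like cells the pair came apart, with 6 Col4a3 and 117 Col4a4 UMIs in cKO and 2 and 118 UMIs in control. Over 31 class and library points (16 classes, which share library and depth), the correlation of log2(CPM + 1) within a pair was 0.91 for Col4a1 and Col4a2, 0.88 for Col4a5 and Col4a6 and 0.60 for Col4a3 and Col4a4.

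**Figure D2:**
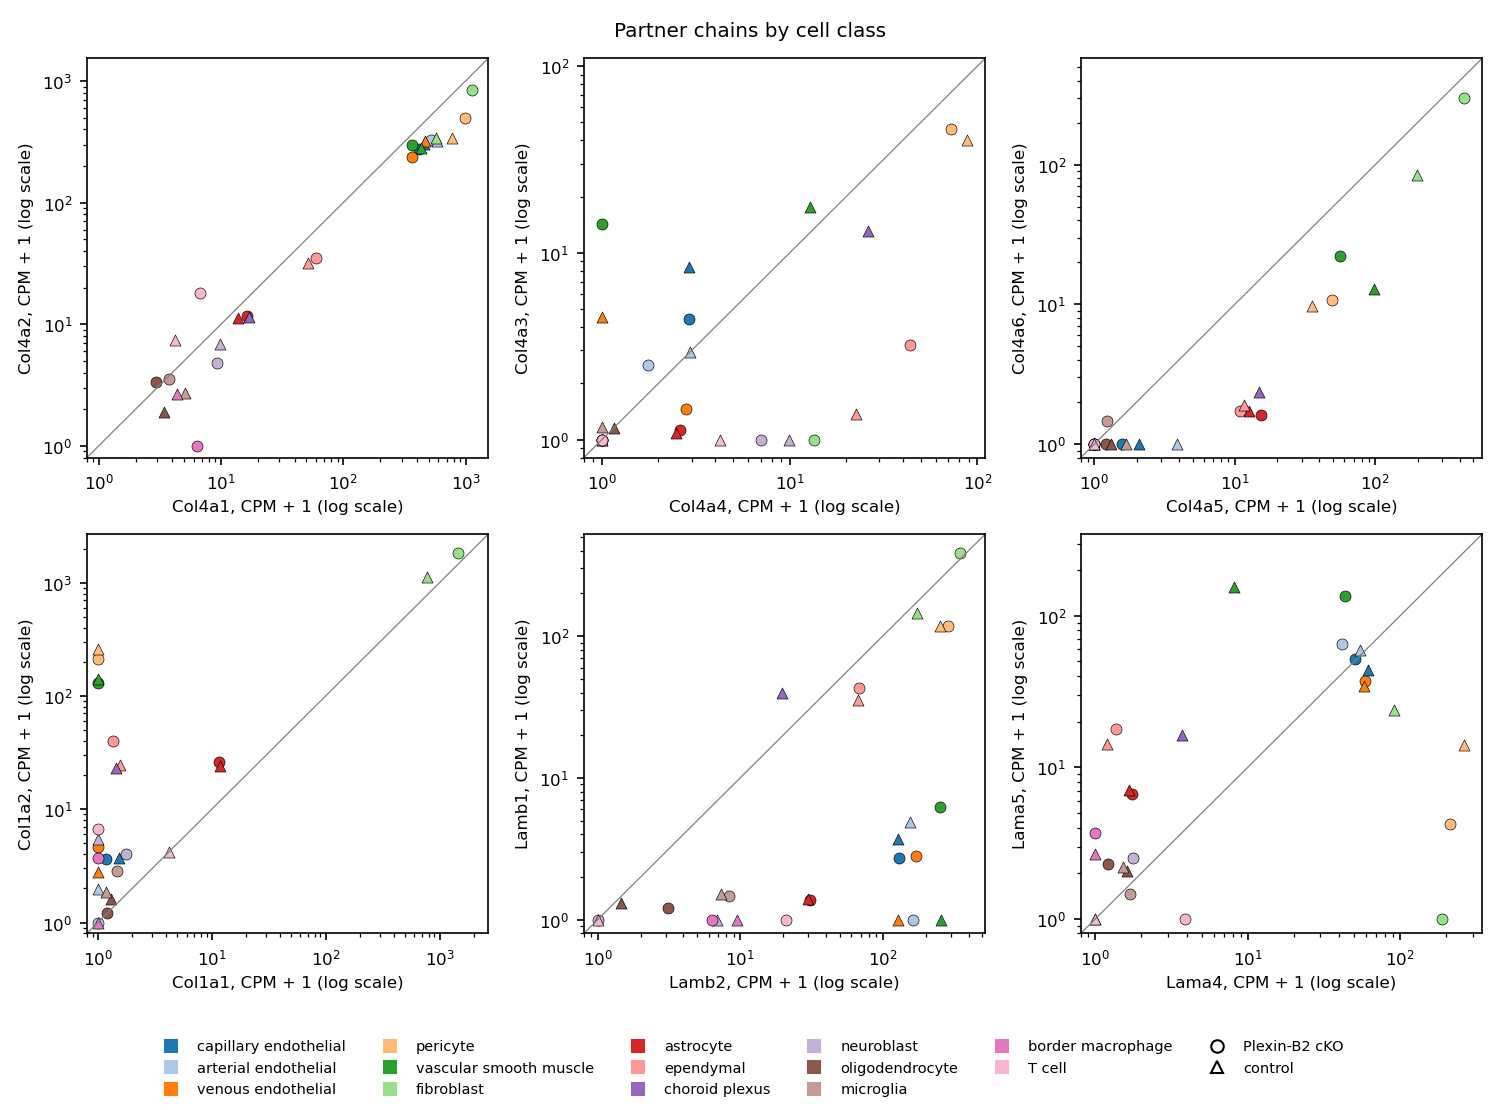
Each panel plots 2 chains against each other as CPM + 1 on log axes, with a point per marker-defined class in the cKO library (circles) and the control library (triangles), coloured by class, and a grey line of equal counts. Col4a1 and Col4a2 lie along a line over all classes, whereas ependymal-like cells leave the line for Col4a3, mural-like cells have Col1a2 without Col1a1, and endothelial-like and smooth-muscle-like cells have Lamb2 with few or no Lamb1 counts.

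The laminin alpha chains, which give a laminin its receptor binding, differed between the cells of the vessel wall. Lama2 held 459 CPM in cKO and 438 CPM in control pericyte-like cells, and Lama2 was at 1.90 and 2.18 CPM in the capillary-like cluster. Astrocyte-like cells, whose endfeet face the vessel, held 51.2 and 54.1 CPM of Lama2 in cKO and control. Lama4, the alpha chain of the laminin spread along all endothelial basement membranes, held 213 CPM in cKO (165 to 271) and 260 CPM in control (199 to 335) pericyte-like cells. It held 49.3 and 61.0 CPM in the capillary-like cluster. Lama5, the alpha chain that marks arterial and capillary stretches, was nearly absent from pericyte-like cells, with 1 UMI in cKO and 3 UMIs in control. Smooth-muscle-like cells had the opposite pattern, with Lama5 at 135 CPM in cKO (100 to 177) and 155 CPM in control (119 to 197) and Lama4 at 42.2 CPM in cKO (16 UMIs) and 7.13 CPM in control (3 UMIs).

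The Lama4 and Lama2 counts of smooth-muscle-like cells differed between libraries together with markers of other vessel cells. Lama2 held 39.6 CPM in cKO and 9.51 CPM in control smooth-muscle-like cells. The 12 endothelial markers summed to 1904 CPM in cKO (12 of 12 detected) and 71.3 CPM in control (9 of 12, Itm2a, Kdr and Tek at 0), and the 12 pericyte markers to 4855 CPM (12 of 12) and 3234 CPM (10 of 12, Kcnj8 and Anpep at 0). The part of those cells in the 2 laminin counts was not tested.

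Within endothelial-like cells the ratio of Lama4 to Lama5 counts ran from artery to vein. It was 0.63 (0.44 to 0.90) in cKO and 0.92 (0.63 to 1.34) in control arterial-like cells, and 0.97 (0.82 to 1.16) and 1.43 (1.16 to 1.76) in capillary-like cells. Venous-like cells had 1.61 (1.21 to 2.16) in cKO and 1.68 (0.93 to 3.14) in control. In cKO the arterial-like and venous-like intervals did not overlap, and in control they did.

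Lama1, a chain of the outer membrane made by meningeal fibroblasts, was at 736 CPM in cKO (560 to 949) and 424 CPM in control (320 to 551) fibroblast-like cells. In pericyte-like cells Lama1 had no UMI in either library, which allows up to 9.69 CPM in cKO and 13.02 CPM in control. Lama3, the alpha chain of the epithelial laminin, had no leading class by the rule, and its counts were spread thinly, with 22.1 CPM in cKO and 14.5 CPM in control arterial-like cells, 16.4 and 19.6 CPM in ependymal-like cells and 10.4 and 9.54 CPM in astrocyte-like cells.

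Of the beta chains, Lamb2 was present across the vessel wall, at 288 CPM in cKO and 252 CPM in control pericyte-like cells and at 253 and 254 CPM in smooth-muscle-like cells. Endothelial-like cells as a whole held 144 CPM of Lamb2 in cKO and 132 CPM in control. Lamb1, the other common beta chain, was confined more closely, with 116 and 117 CPM in cKO and control pericyte-like cells. All endothelial-like cells together held 13 Lamb1 UMIs in cKO and 14 in control, and smooth-muscle-like cells held 2 UMIs in cKO and 0 in control. The count of Lamb2 over Lamb1 was 97.5 (56.8 to 184) in cKO and 49.9 (29.6 to 91.8) in control endothelial-like cells. In pericyte-like cells it was 2.47 (1.66 to 3.75) in cKO and 2.15 (1.34 to 3.53) in control, and in ependymal-like cells 1.60 (1.26 to 2.04) and 1.91 (1.60 to 2.29). The ratio was below 1 in control choroid-plexus-like cells, 0.477 (0.363 to 0.623). Fibroblast-like cells held 387 CPM of Lamb1 in cKO and 144 CPM in control, and 64.5% of the 31 cKO UMIs lay in 1 cell.

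Lamc1, the gamma chain of most laminins, was led by pericyte-like cells with 798 CPM in cKO (702 to 904) and 651 CPM in control (551 to 764). Lamc1 was lower in the capillary-like cluster, at 65.6 and 57.4 CPM. Lamc3, a rarer gamma chain, held 359 CPM in cKO (295 to 432) and 256 CPM in control (195 to 330) pericyte-like cells, against 5.12 and 8.16 CPM in the capillary-like cluster. Lamb3, a beta chain of epithelial laminin, was sparse. Its leading class in both libraries was T-cell-like cells, at a mean of 23.0 CPM but with only 7 UMIs in cKO and 8 in control. Ependymal-like cells came next at a mean of 10.6 CPM and held 33 Lamb3 UMIs in cKO and 50 in control.

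**Figure D3:**
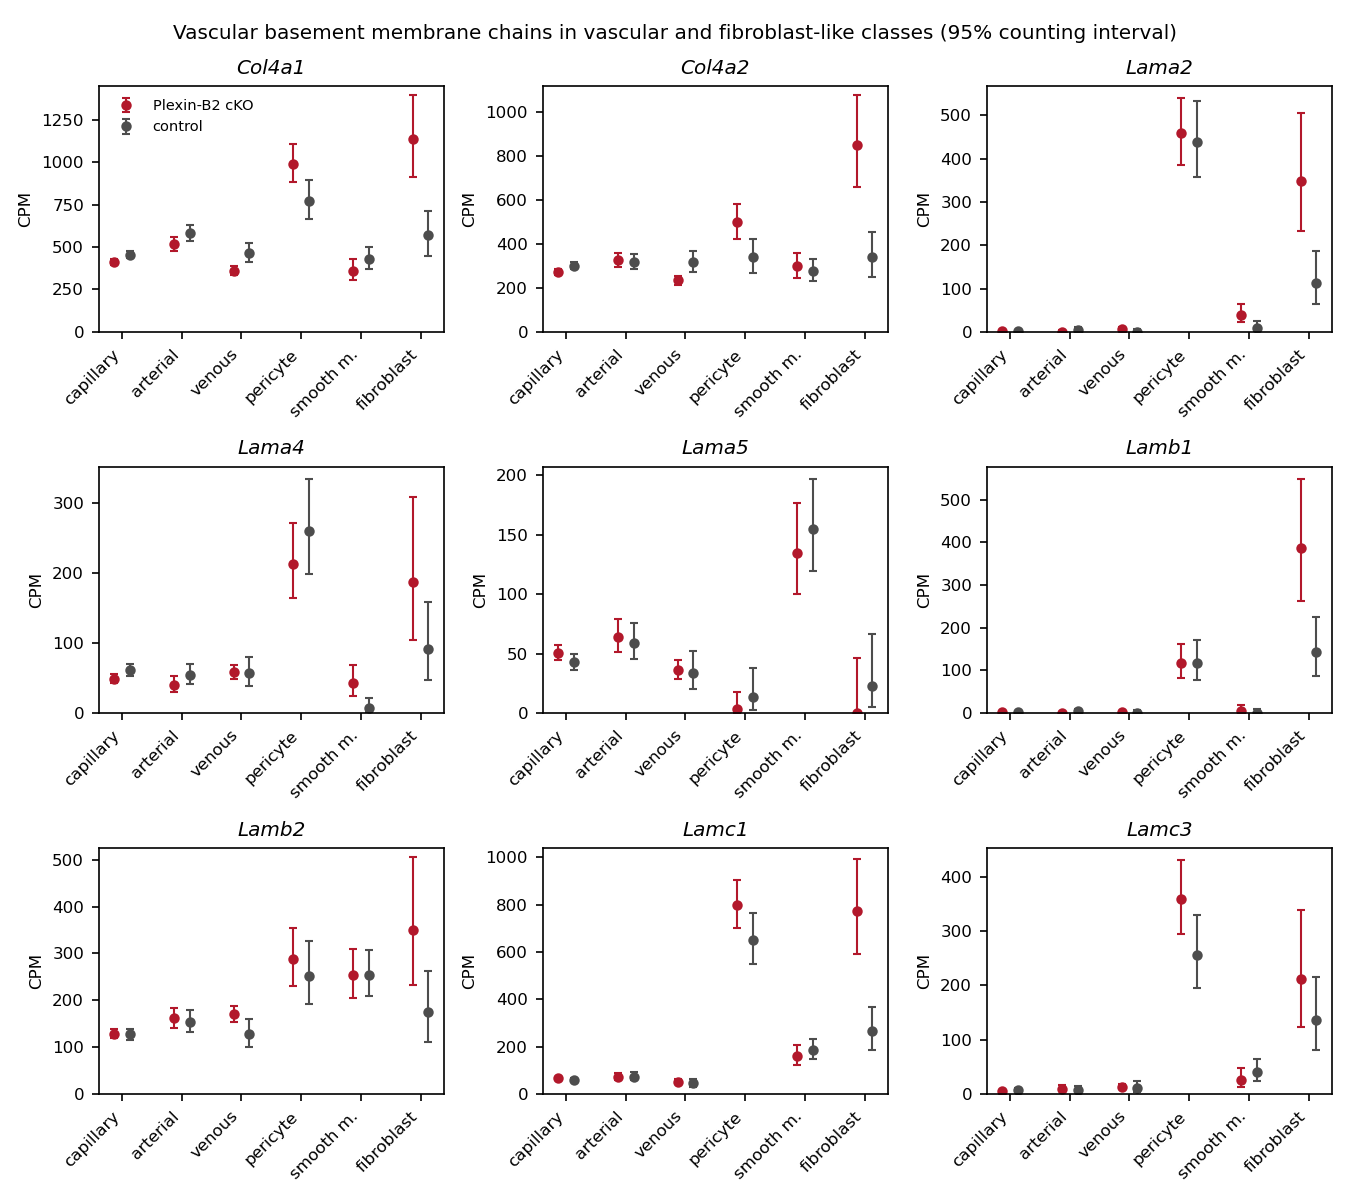
Level in CPM (linear axes from 0) of Col4a1, Col4a2 and 7 laminin chains in the 3 endothelial-like clusters and in pericyte-like, smooth-muscle-like and fibroblast-like cells of the cKO library (red, left) and the control library (grey, right), with exact Poisson 95% intervals that cover counting error only. Lama2, Lamc1 and Lamc3 peak in pericyte-like cells among vessel cells, whereas Lama5 peaks in smooth-muscle-like cells and is near 0 in pericyte-like cells.

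Of the 10 fibrillar chains, Col1a1, Col1a2, Col3a1 and Col5a2 were led by fibroblast-like cells. Col1a1 held 1447 CPM in cKO (1195 to 1735) and 773 CPM in control (630 to 938) fibroblast-like cells, and Col1a2, its partner in type I collagen, held 1833 and 1121 CPM. Col3a1, the chain of type III collagen, held 511 CPM in cKO and 326 CPM in control. Mural-like cells carried Col1a2 without Col1a1. Pericyte-like cells held 65 Col1a2 UMIs in cKO and 60 in control, and smooth-muscle-like cells 49 and 59. Col1a1 had 0 UMIs in both classes of both libraries, which allows at most 9.69 and 13.02 CPM in cKO and control pericyte-like cells and 7.91 and 7.13 CPM in smooth-muscle-like cells. Ependymal-like cells were alike, with 1 Col1a1 and 106 Col1a2 UMIs in cKO and 3 and 129 in control. Astrocyte-like cells held both, 86 Col1a1 and 201 Col1a2 UMIs in cKO and 132 and 284 in control. The count of Col1a1 over Col1a2 was 0.789 (0.613 to 1.01) in cKO and 0.689 (0.530 to 0.893) in control fibroblast-like cells.

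Other members led by fibroblast-like cells included Col15a1, a multiplexin of basement membrane zones, at 1222 CPM in cKO (992 to 1489) and 462 CPM in control (353 to 594). Col12a1, a FACIT of dense connective tissue, held 686 CPM in cKO (517 to 893) and 295 CPM in control (210 to 404). Col6a1, a chain of beaded filaments, held 387 and 98.5 CPM. All of these were higher in the cKO cells, and so were the fibroblast markers, at 12944 CPM in cKO (12 of 14) and 9447 CPM in control (12 of 14), and the pericyte markers, at 8106 CPM (8 of 12) and 3735 CPM (8 of 12). Endothelial and astrocyte markers differed the other way in these few cells. The endothelial markers summed to 374 CPM in cKO (9 of 12, Cldn5, Tek and Erg at 0) and 3947 CPM in control (12 of 12), and the astrocyte markers to 1783 CPM (8 of 12, Aqp4, Aldoc, Aldh1l1 and Fgfr3 at 0) and 4235 CPM (11 of 12, Gfap at 0). The part of those cells in the fibroblast-like levels was not tested, and with 14 and 18 cells this class was not compared further.

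Several collagens belonged to cells outside the vessel wall. Ependymal-like cells held Col6a5, a type VI chain, at 123 CPM in cKO (110 to 137) and 217 CPM in control (205 to 230). They also held Col8a2, a chain of the short-chain network collagen type VIII, at 132 CPM in cKO (119 to 146) and 146 CPM in control (136 to 157), and Col5a3 at 76.4 and 67.5 CPM. Capillary-like cells had 1 UMI of Col6a5 in cKO and 2 in control. Control choroid-plexus-like cells, 358 in number, held Col9a3 at 421 CPM (402 to 440), Col8a1 at 271 CPM (256 to 287) and Col8a2 at 101 CPM (91.5 to 110). The cKO library had 4 such cells with 3 UMIs of Col9a3 and none of Col8a1 or Col8a2, so these levels could not be compared. Col9a3 was also found in astrocyte-like cells, at 51.1 CPM in cKO and 44.1 CPM in control.

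Microglia-like cells held mainly Col27a1, a fibrillar chain, at 109 CPM in cKO (99.6 to 120) and 151 CPM in control (142 to 162). Col15a1 was next, at 22.2 CPM in cKO and 25.9 CPM in control microglia-like cells. Col27a1 was also found in pericyte-like cells, at 54.9 CPM in cKO and 73.8 CPM in control, from 17 UMIs in each. Ependymal-like cells held 34.0 and 44.8 CPM of Col27a1. After thinning, 11.1% of cKO and 13.8% of control microglia-like cells had a Col27a1 UMI, against 0.179% and 0.959% of oligodendrocyte-like cells, and without thinning 36.6% and 41.1% (median depths 5229 and 3840 UMIs). Col14a1, a FACIT, was led by arterial-like cells at 71.5 CPM in cKO (57.8 to 87.5) and 80.0 CPM in control (63.7 to 99.2), next to 12.9 and 23.7 CPM in the capillary-like cluster and 2.26 and 7.08 CPM in the venous-like cluster. Col18a1, the other multiplexin, was also arterial among endothelial-like cells, at 69.2 and 50.1 CPM against 2.08 and 2.99 CPM in the capillary-like cluster. Col6a6 had its UMIs almost entirely in venous-like cells, with 23 of the 26 UMIs of kept cells in cKO and 19 of 20 in control.

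Genes outside the family were ranked by how closely their log2(CPM + 1) followed Col4a1 and Lamb2, the collagen and the laminin with the most UMIs, over the same 31 points and 9868 genes. Foxc1 (r = 0.93), Hspg2 (0.93), Dlc1 (0.92), Uaca (0.92) and Arhgap29 (0.92) were closest to Col4a1. Dock6 (0.92), Hspg2 (0.91), Cavin1 (0.90), Uaca (0.90) and Rbpms (0.89) were closest to Lamb2. Hspg2 encodes perlecan, a basement membrane proteoglycan, and it was on both lists.

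Levels in cKO were then set against control within each class that had at least 100 cells in both libraries. A gene counted as measured with at least 50 UMIs over both libraries and a mean of 20 CPM. A ratio of 1.5-fold or more in either direction, with no condition on its interval, was called higher or lower. The clusters within the endothelial-like and mural-like classes are given beside them, although the venous-like, pericyte-like and smooth-muscle-like clusters had fewer than 100 cells in a library. The vascular basement membrane chains differed little between the libraries in endothelial-like cells. Of 7 measured members, none was higher and 1 was lower, where 1.02% of 6296 measured genes were higher and 1.4% lower. Col4a1 held 415 CPM in cKO and 481 CPM in control, a log2 ratio of -0.21 (-0.29 to -0.14). Col4a2 held 271 and 307 CPM, a log2 ratio of -0.18 (-0.27 to -0.09). In the class as a whole both type IV chains were thus lower in cKO by more than counting error and by less than 1.5-fold. Col4a1 had a log2 ratio of -0.17 (-0.33 to -0.01) and Col4a2 of 0.03 (-0.18 to 0.24) in the arterial-like cluster. Both were at -0.14 in the capillary-like cluster. With cells thinned to 1000 UMIs, Col4a1 in the class had -0.13 and Col4a2 -0.34, each outside its interval. With the unnamed clusters that carried all 12 endothelial markers added to the class, the log2 ratios were -0.069 for Col4a1 and -0.056 for Col4a2. Lamb2 had a log2 ratio of 0.12 (-0.02 to 0.25), Lamc1 of 0.10 (-0.10 to 0.31), Lama5 of 0.12 (-0.11 to 0.36) and Lama4 of -0.24 (-0.45 to -0.02). The median over the 7 members was -0.18, beside 0.02 over all measured genes. Choroid plexus markers, whose cells were sampled almost entirely in control, summed to 1.93 CPM in cKO (5 of 9, Kl, Clic6, Slc4a5 and Prlr at 0) and 951 CPM in control (9 of 9) endothelial-like cells, and their part in these ratios was not tested.

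The member that passed 1.5-fold in endothelial-like cells was Col14a1, with 19.0 CPM in cKO and 33.0 CPM in control, a log2 ratio of -0.80 (-1.11 to -0.48). The make-up of the class differed: arterial-like cells gave 14.9% of its UMIs in cKO and 19.7% in control, and venous-like cells 25.2% and 10.7%. The part of this make-up in the ratios of Col14a1 and the type IV chains was not tested. Within arterial-like cells Col14a1 had a log2 ratio of -0.16 (-0.60 to 0.28), and in the capillary-like cluster, where its level was too low to count as measured, of -0.88 (-1.36 to -0.40). None of 8 measured members passed 1.5-fold in arterial-like cells, where 4.35% of 6214 measured genes were higher and 4.78% lower. None of 6 passed in capillary-like cells, where 1.04% of 6257 were higher and 1.23% lower. None of 6 passed in venous-like cells, where 4.64% of 6293 were higher and 6.88% lower. In venous-like cells (91 in cKO, 25 in control) the log2 ratio of Col4a1 was -0.37 (-0.57 to -0.16), that of Col4a2 -0.44 (-0.69 to -0.19) and that of Lamb2 0.42 (0.05 to 0.80).

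In mural-like cells 1 of 14 measured members was higher and 3 were lower, where 8.8% of 4421 measured genes were higher and 4.66% lower. Lamc3 was higher, at 176 CPM in cKO and 117 CPM in control (log2 ratio 0.59, 0.16 to 1.02). Col18a1 was lower, at 52.3 CPM in cKO and 99.8 CPM in control (log2 ratio -0.93, -1.56 to -0.32). Col8a1 was lower, at 31.9 and 59.9 CPM (-0.91, -1.73 to -0.12). Col3a1 was lower, at 50.8 and 79.9 CPM (-0.65, -1.31 to -0.01). Each of these 4 calls was lost when 1 cell was left out. Without the control cell with most UMIs of the gene, the log2 ratio was -0.51 for Col18a1 (26.2% of its 65 control UMIs lay in that cell), -0.55 for Col8a1 (23.1% of 39) and -0.51 for Col3a1 (9.62% of 52). Without the cKO cell with most Lamc3 UMIs (5.79% of 121), that of Lamc3 was 0.52. The vascular chains had ratios below 1.5-fold, 0.22 (0.02 to 0.43) for Col4a1, 0.37 (0.10 to 0.65) for Col4a2, 0.35 (0.10 to 0.61) for Lamc1, 0.30 (-0.19 to 0.80) for Lama4, 0.41 (-0.34 to 1.18) for Lamb1, 0.08 (-0.23 to 0.40) for Lamb2 and -0.47 (-1.02 to 0.07) for Lama5. The median over the 14 members was 0.15, beside 0.06 over all measured genes. Pericyte-like cells gave 44.9% of the UMIs of this class in cKO and 35.4% in control, endothelial markers summed to 1192 CPM (12 of 12) and 179.7 CPM (11 of 12, Tek at 0), and choroid plexus markers to 5.81 CPM (4 of 9, Folr1, Kl, Kcnj13, Slc4a5 and Otx2 at 0) and 1355 CPM (8 of 9, Kcnj13 at 0), cKO before control. The part of these shares in the ratios was not tested. For Lamc3, the log2 ratio was 0.49 (0.02 to 0.97) in pericyte-like cells and -0.62 in smooth-muscle-like cells, where it had 10 UMIs in cKO and 17 in control. Col4a1 and Lamc1 likewise differed in sign between the clusters, with log2 ratios of -0.25 (-0.58 to 0.08) and -0.21 (-0.71 to 0.30) in smooth-muscle-like cells, where neither interval excluded 0.

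Within the separate mural-like clusters fewer members passed. Pericyte-like cells had 10 measured members, none higher and 1 lower, Col3a1 (71.1 CPM in cKO, 130 CPM in control, log2 ratio -0.87, -1.74 to -0.03), where 8.28% of 2064 measured genes were higher and 4.07% lower. There Col4a1 had a log2 ratio of 0.36 (0.08 to 0.63), Col4a2 of 0.56 (0.15 to 0.97), Lamc1 of 0.29 (-0.004 to 0.60), Lama4 of -0.29 (-0.81 to 0.24), Lamb2 of 0.19 (-0.30 to 0.70) and Lamb1 of -0.01 (-0.77 to 0.77). The type IV chains of pericyte-like cells were thus higher in cKO by more than counting error, the reverse of their direction in endothelial-like cells as a whole. Neither difference reached 1.5-fold, and the difference between the classes was not tested. Smooth-muscle-like cells had 8 measured members, none higher and 2 lower, where 8.07% of 2491 measured genes were higher and 5.54% lower. Those were Col4a5 (55.4 CPM in cKO, 97.5 CPM in control, log2 ratio -0.82, -1.65 to -0.02) and Col18a1 (94.9 and 152 CPM, -0.68, -1.31 to -0.07). Without the control cell that held 26.6% of its 64 UMIs, Col18a1 had a log2 ratio of -0.26 there, which is not past 1.5-fold. With a median-of-ratios size factor the ratios of smooth-muscle-like cells shift by 0.15 on the log2 scale.

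Ependymal-like cells had 12 measured members, 2 higher and 1 lower, where 1.99% of 7174 measured genes were higher and 0.822% lower. Col4a4 was higher, at 42.7 CPM in cKO and 21.7 CPM in control (log2 ratio 0.98, 0.60 to 1.36). Col1a2 was higher, at 38.7 and 23.7 CPM (0.71, 0.33 to 1.09), but not past 1.5-fold without 1 cKO cell that held 12.3% of its UMIs (0.56). Col6a5 was lower, at 123 CPM in cKO and 217 CPM in control (-0.82, -1.002 to -0.65). A Col6a5 UMI was found in 53 of 111 cKO and 114 of 240 control cells of the class. With cells thinned to 1000 UMIs the log2 ratio of Col6a5 was -0.32, outside that interval and not past 1.5-fold. Choroid plexus markers in ependymal-like cells summed to 362 CPM in cKO (6 of 9, Kl, Aqp1 and Slc4a5 at 0) and 856 CPM in control (9 of 9). Their part was not tested, and Col6a5 itself was at 0.672 CPM in control choroid-plexus-like cells. The other 9 members lay within 1.5-fold, and the median over the 12 was 0.15, beside 0.02 over all measured genes.

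Glial classes and neuroblast-like cells had no measured member past 1.5-fold. Below the CPM minimum, Col5a3 was at 10.0 CPM in cKO and 4.73 CPM in control astrocyte-like cells (log2 ratio 1.08, 0.58 to 1.59). Col9a2 was also higher there (0.65, -0.14 to 1.44). More members with few UMIs were lower in cKO astrocyte-like cells, some by far more. Among them were Col8a2 with 5 UMIs in cKO and 50 in control (-2.72, -4.41 to -1.40) and Col6a1 with 1 and 41 (-4.76, -10.1 to -2.20). Col12a1 had 1 and 21 UMIs and Col8a1 0 and 20. In microglia-like cells Col6a3 was at 9.24 CPM in cKO and 18.4 CPM in control (-0.99, -1.55 to -0.46). Astrocyte-like cells had 6 measured members with log2 ratios between -0.21 and 0.22 and a median of 0.07, where 0.711% of 6471 measured genes were higher and 0.989% lower. Microglia-like cells, which are among the myeloid cells in which the Cre is active, had 2 measured members. Col27a1 was at -0.47 (-0.64 to -0.31) and Col15a1 at -0.23 (-0.61 to 0.15), where 2.83% of 6332 measured genes were higher and 2.29% lower. In the unnamed cluster 6, which carried microglia markers, Col27a1 differed the other way, with overlapping counting intervals. A cluster of low depth gave 182 of the 751 cKO and 113 of the 1403 control microglia-like cells. The part of this make-up in the ratios was not tested. Neuroblast-like cells had 2 (Col9a3 and Col11a1), where 4.72% of 5405 genes were higher and 4.4% lower. Oligodendrocyte-like cells had 2 (Col9a3 and Lamc1), where 0.414% of 5804 genes were higher and 1.22% lower.

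**Figure D4:**
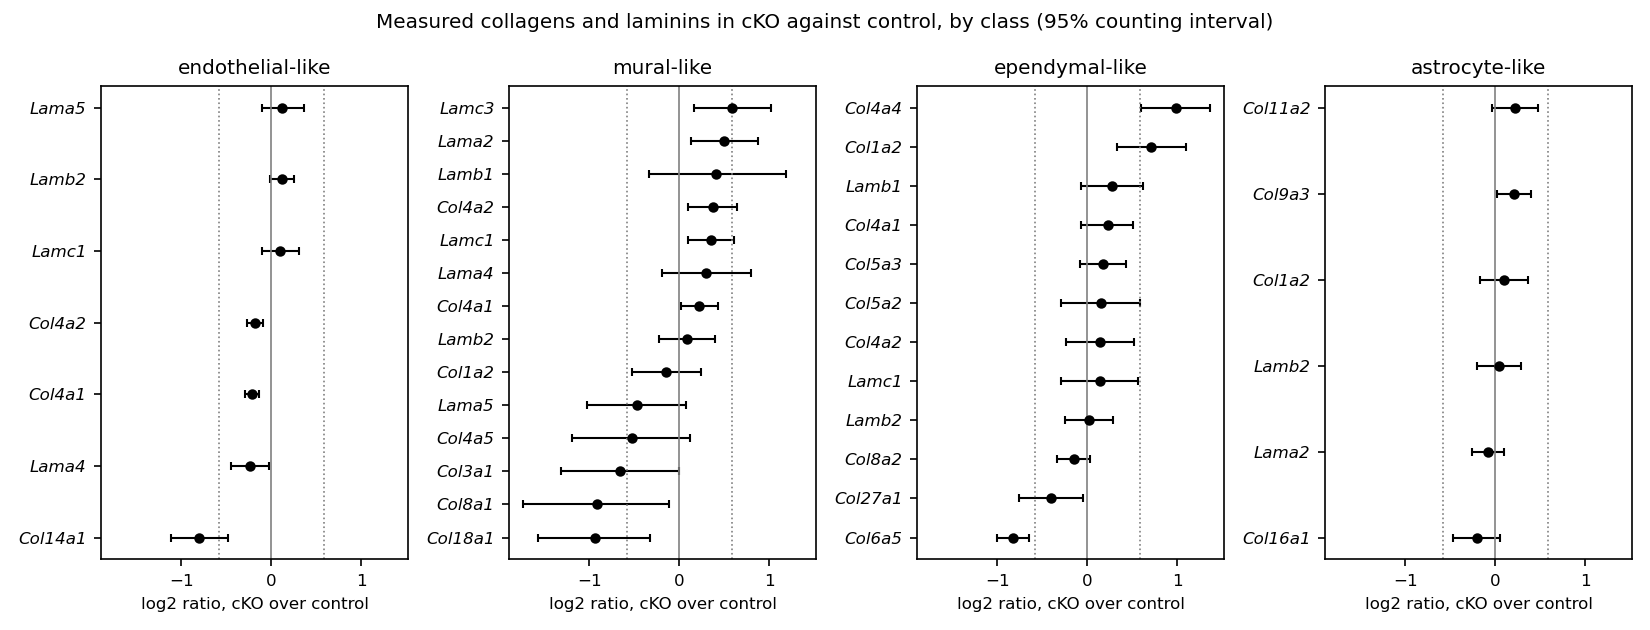
Log2 ratio of CPM, cKO over control, for every measured collagen and laminin in 4 classes, with exact conditional 95% intervals that cover counting error only; dotted lines mark 1.5-fold and the solid line marks equality. Col14a1 in endothelial-like cells, Lamc3, Col18a1, Col8a1 and Col3a1 in mural-like cells and Col4a4, Col1a2 and Col6a5 in ependymal-like cells lie past the dotted lines.

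Genes that act with the family were counted from 3 lists, to be read beside the shares over all measured genes, 1.02% higher and 1.4% lower in endothelial-like cells and 8.8% higher and 4.66% lower in mural-like cells. Among basement membrane partners in endothelial-like cells, none of 11 measured was higher and 1 was lower, Fbln2, a fibulin, at 23.3 CPM in cKO and 35.1 CPM in control (log2 ratio -0.59, -0.88 to -0.30). None of 9 measured genes for collagen folding, modification and cross-linking and none of 5 measured receptors passed there. In mural-like cells, none of 9 measured partners was higher and 1 was lower, Fn1, which encodes fibronectin, at 63.9 CPM in cKO and 144 CPM in control (-1.18, -1.73 to -0.65). Of 11 measured folding genes, none was higher and 1 was lower, Crtap, a collagen prolyl hydroxylation subunit, at 39.2 and 63.0 CPM (-0.68, -1.44 to 0.05). None of 8 measured receptors passed in mural-like cells as a whole. In smooth-muscle-like cells 8.07% of 2491 measured genes were higher and 5.54% lower. None of 7 measured receptors was higher there and 1 was lower, Dag1, which encodes the laminin receptor dystroglycan, at 303 CPM in cKO and 457 CPM in control (-0.59, -0.94 to -0.25). None of 7 measured partners was higher and 2 were lower, Fn1 and Agrn, which encodes the proteoglycan agrin, at 63.3 and 107 CPM (-0.76, -1.54 to -0.01). In pericyte-like cells 8.28% of 2064 measured genes were higher and 4.07% lower. None of 6 measured folding genes was higher there and 1 was lower, P4ha1, a prolyl hydroxylase subunit, at 113 CPM in cKO and 178 CPM in control (-0.65, -1.35 to 0.03). Almost all mural Fn1 came from smooth-muscle-like cells, with 43 of 44 UMIs in cKO and 88 of 94 in control, and within them Fn1 was at 113 and 209 CPM (-0.88, -1.44 to -0.34). Leaving out the cell with most UMIs was not tried for the genes of these lists.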

How the data were processed

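The deposited matrices of raw UMI counts per gene and barcode were used; per the file headers, the authors used Cell Ranger 7.1.0, and per the submitters' processing notes the build was mm10. For the annotation release and the treatment of introns, the setting is not given in the sources used here. Of the 2 matrices, the deposited cKO matrix was unfiltered (2377349 barcodes, 63785513 UMIs, 20.6% of them in barcodes under 500 UMIs), and the deposited control matrix was filtered (10942 barcodes of at least 500 UMIs, 64756949 UMIs).

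The same minimum of 1000 UMIs and 500 genes and limit of 10% mitochondrial UMIs kept 5398 cKO and 8068 control barcodes. Scrublet in scanpy 1.11.5, run on each library for an expected 6% of doublets, called 3.56% and 5.24% doublets, which were removed. Both libraries were then clustered jointly, using log counts per 10000, 2000 variable genes without members, 30 principal components, 15 neighbours and Leiden resolution 1.0 (leidenalg 0.10.2). This gave 31 clusters.

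Clusters were named from 24 marker sets holding no collagen or laminin. A name needed at least 3 markers, each found in 10% or more of the cells of a cluster and 2-fold above the others. After the data were seen, clusters with under 50% of a set's markers, or at least 75% of a second set's, were left unnamed. Those rules left out cluster 20 (0.461% of cKO and 1.29% of control cells), cluster 25 (0.480% and 0.183%) and cluster 28 (0.269% and 0.196%). In all, 14.8% of cKO and 10.9% of control cells were in unnamed clusters, with 6.24% and 2.01% in cluster 7, which carried endothelial and pericyte markers together.

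For every class of each library, UMIs were summed and given as CPM with exact Poisson 95% intervals, shares of cells with exact Clopper-Pearson intervals, and log2 ratios of cKO over control with exact conditional intervals (scipy 1.17.1, numpy 2.4.6, pandas 2.3.3, Python 3.11.15). The ratio step was tested on simulated counts. Named members are those with at least 50 CPM and 30 UMIs in their leading class in a library, the 5 highest and 5 lowest ratios past 1.5-fold per class, and the vascular chains. The separate clusters of a class, pairs of chains and members with few UMIs were chosen after their values were seen. The members and lists were chosen with earlier results of these data known. Coordinates are from GENCODE vM21, which held all 52 members; the values of 1 member are not reported here. Alternatives were other UMI, mitochondrial and count minimums, resolutions, clustering with members, no doublet removal, a size factor, thinning to 1000 UMIs single clusters of a class and, chosen after seeing the data, leaving out the cell with most UMIs of a member.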

Additional observations from a re-analysis of the deposited data

Results flagged for a closer look

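The deposited cKO matrix also holds barcodes too small to be cells, and the control matrix holds none of these, so they entered no comparison. The 1448877 cKO barcodes with 1 to 100 UMIs held 3917906 UMIs in all. For 8 members with more than 3 UMIs there, the level was at least 2 times that in kept cKO cells. Col18a1 was at 47.2 CPM in the small barcodes and 8.20 CPM in kept cells, a ratio of 5.76. Col1a1 was at 14.3 and 5.29 CPM, and Col3a1 at 10.5 and 4.42 CPM. Col13a1 was at 7.66 CPM in the small barcodes and 1.15 CPM in kept cells, Col6a3 at 4.59 and 1.44 CPM, and Col6a1 at 4.08 and 0.981 CPM. Lamb3 was at 3.57 and 1.196 CPM, and Col22a1, with 4 UMIs in the small barcodes, at 1.02 and 0.215 CPM. Col4a1 and Lamb2 were lower in the small barcodes, with Col4a1 at 115 CPM against 207 CPM in kept cells and Lamb2 at 65.6 against 79.1 CPM. Alb and Apoa2, genes of hepatocytes, were at 3529 and 1851.5 CPM in the small barcodes and at 0.526 and 1.08 CPM in kept cells. The source of these UMIs was not tested.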

How the results depend on the processing

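With 1 library per genotype, depth limits every value, and members under 50 UMIs in a class could not be compared. At a mitochondrial limit of 5%, the median log2 ratio of measured members came to -0.13 for astrocyte-like cells, -0.039 for ependymal-like cells and 0.29 for mural-like cells, 1 member was higher in astrocyte-like cells, 0 were higher and 0 lower in mural-like cells, and Col8a1 in mural-like cells turned to 0.18. With cells thinned to 1000 UMIs, it came to -0.0496 for astrocyte-like and 0.027 for endothelial-like cells. There 1 member was higher in astrocyte-like and 1 in endothelial-like cells. In ependymal-like and mural-like cells 0 were higher, and 0 were lower in endothelial-like, ependymal-like and mural-like cells. These counts take in only measured members, and ratios of some members not counted stayed past 1.5-fold. Thinned log2 ratios were 0.63 for Col4a4 and 0.70 for Col1a2 in ependymal-like cells and -1.12 for Col3a1 in mural-like cells. Those of Col14a1 in endothelial-like (-0.49), Col6a5 in ependymal-like (-0.32) and Col18a1 in mural-like cells (-0.05) were not past it. At the limit of 5%, Col3a1 had -1.18 in mural-like cells. In the capillary-like cluster alone the median was -0.063 and 0 members were lower. With the unnamed clusters that carry all 12 endothelial markers added, the median was 0.035 and 0 were lower. In smooth-muscle-like cells alone the median was -0.20, 0 were higher and Lamc3 turned to -0.62, Col4a1 to -0.25 and Lamc1 to -0.21. In pericyte-like cells alone 0 were higher, 1 was lower and Col8a1 turned to 0.034, Lama4 to -0.29. Higher mural-like members numbered 2 with a floor of 2000 UMIs, 2 with a mitochondrial limit of 20% and 0 with the size factor. With members of at least 20 UMIs and no CPM minimum, 2 were higher and 7 lower in astrocyte-like cells, 9 were lower in endothelial-like cells, 1 was higher and 3 were lower in microglia-like cells, 3 were higher in mural-like cells, and 1 was higher and 2 were lower in oligodendrocyte-like cells. The shares over all genes given above hold for the main setting only. For this lower minimum and the other changed settings, single clusters aside, no such share is given. Their counts therefore cannot be read as a result about the members. Apart from members no longer measured, the cause of the changes between settings was not tested. The thinned and single-cluster settings hold fewer UMIs, cells or clusters, and the part of this was not tested either. The cluster choices were made after seeing the data.

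Members led, with pericyte-like and smooth-muscle-like cells taken as mural-like, were counted anew; here mural-like cells led for 3 and fibroblast-like cells for 25. A floor of 2000 UMIs gave 0 for T-cell-like and 7 for ependymal-like cells. A limit of 5% gave 0 for T-cell-like, 7 for ependymal-like, 8 for mural-like and 1 for oligodendrocyte-like cells. A limit of 20% gave 8 for mural-like cells, and clustering with the members gave 6. With only classes of at least 50 cells in both libraries, mural-like cells led for 20, ependymal-like for 11, astrocyte-like for 6, microglia-like for 3, and choroid-plexus-like and fibroblast-like for 0. Resolutions of 0.5 and 2.0 and no doublet removal moved none of these. Shares of cells with a UMI moved past their counting interval without thinning for 43 values and stayed within it for 3. No paired analysis was possible because each genotype has 1 library, so fewer than 2 replicate numbers are shared.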

Other observations

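Collagens and laminins were also found in clusters that no marker set named. Cluster 20 (24 cKO and 99 control cells), led by Npy, Frzb, Mybpc1, Foxd3, Wnt6 and Fabp7, held 1378 CPM of the family in cKO and 1292 CPM in control. Col23a1, a transmembrane collagen, was at 339 CPM in cKO (259 to 436) and 228 CPM in control (191 to 271) there, and Col11a1, a fibrillar chain of cartilage, at 277 and 288 CPM. Col9a2, a FACIT chain, was at 119 CPM in cKO and 100 CPM in control. The next highest level of Col23a1 was in fibroblast-like cells, at 175 CPM in cKO and 106 CPM in control, and Col11a1 and Col9a2 were below 50 CPM in every named class of both libraries. Cluster 20 held little Col4a1, at 28.2 CPM in cKO and 40.4 CPM in control.

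Cluster 7 (325 cKO and 154 control cells), with Rgs5 and Abcc9 beside endothelial genes and medians of 16775 and 15431 UMIs per cell, held 1903 CPM of the family in cKO and 1811 CPM in control. Its Col4a1 was at 589 and 564 CPM, its Lama2 at 76.6 and 94.1 CPM and its Lama5 at 42.5 and 46.5 CPM. The Col4a1 and Lama2 levels lay between those of capillary-like and pericyte-like cells in both libraries, and so did Lama5 in cKO, while Lama5 in control was close to that of capillary-like cells, 42.7 CPM. Cluster 6 (147 cKO and 367 control cells), with microglia markers and medians of 1457 and 1353 UMIs per cell, held Col27a1 at 312 CPM in cKO (245 to 392) and 221 CPM in control (183 to 264). Both values were above those of the named microglia-like cells of the same library. The cKO level was above the control level in cluster 6, the reverse of the named class, and the counting intervals overlapped.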
